A study of Mus musculus with 3 samples.

Results

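Malat1, Neat1, Gm42418, Gm26917 and AY036118, 5 noncoding RNAs of the nucleus and of the ribosomal RNA repeat, were followed in single sorted microglia of control, hCD33M and hCD33m mice. They are 5 of 15635 genes in the count files. The 5 genes were chosen on measured values of these same libraries, namely their share of transcripts in barcodes with few transcripts, so those levels describe the choice and test nothing. Values were taken from 18274 of 18340 barcodes, those with more than 200 and at most 8000 genes, and no limit was set on mitochondrial transcripts.

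The experiment used 1 library per genotype, and each library pooled microglia of 2 mice aged 8 weeks. Control mice are labelled wild type. hCD33M mice carried the long isoform and hCD33m mice the short isoform of human CD33, a sialic acid binding receptor of myeloid cells, as a transgene in the Rosa26 locus behind a floxed stop, which Cx3cr1-Cre removes in microglia and other Cx3cr1-expressing cells. The hCD33m line came from 1 embryonic stem cell clone, and human CD33 itself is not among the genes counted. Cells were sorted as CD11b+CD45lowCx3cr1+ after isolation on ice in the presence of blockers of transcription (actinomycin D, triptolide) and of translation (anisomycin). By its label the hCD33m library came from female mice and the others from male mice. The Y-linked gene Ddx3y was at 94.6 CPM (UMIs scaled to 1000000 per class of barcodes) in hCD33m, against 95 CPM in control and 105 CPM in hCD33M. The hCD33m library held no molecule of Xist, the RNA of the inactive X chromosome, so its counts go against its label. The paper describes the mice of every genotype as male.

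Malat1 and Neat1 are long noncoding RNAs that stay in the nucleus. Malat1 gathers in nuclear speckles, which store splicing factors. Neat1, in its long form, is the scaffold of paraspeckles, which hold RNA-binding proteins such as Sfpq and Nono. Counts here are per gene and do not tell forms of Neat1 apart. Gm42418, Gm26917 and AY036118 are annotated beside each other at a copy of the ribosomal DNA, so their counts can hold reads of ribosomal RNA and of its precursor, which is made in the nucleolus and carries no poly(A) tail of the kind that mRNAs have.

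The sequences are shown because the 3′ method of counting starts from stretches of A, which these RNAs hold to different extents. All positions are those of GENCODE M21 on GRCm38, the assembly also named mm10. Malat1 lies on chromosome 19 from 5795690 to 5802672 on the minus strand, is 6983 bases long and is 42.5% G and C. Mature Malat1 has no added poly(A) tail and ends at a stretch of A encoded in the gene, followed by the tRNA-like mascRNA, which is cut off. Its longest run of A has 12 bases, from 6674 to 6685 of the transcript, and is shown in capitals with the start of mascRNA after it, at chr19:5795928-5796059.
Malat1 around its longest run of A: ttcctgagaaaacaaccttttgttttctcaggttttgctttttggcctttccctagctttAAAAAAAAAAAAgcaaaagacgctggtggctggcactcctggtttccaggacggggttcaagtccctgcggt

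Neat1 lies 22035 bases from Malat1 on the same strand of chromosome 19, from 5824708 to 5845478, and is 20771 bases long. Its last 60 bases, at chr19:5824708-5824767, end in an A-rich stretch.
Neat1 last 60 bases: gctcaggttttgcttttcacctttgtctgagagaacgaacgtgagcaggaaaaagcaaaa

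The other 3 genes lie within 5776 bases of chromosome 17. Gm26917, on the plus strand from 39843013 to 39846341, is 3329 bases long and 69.1% G and C. Gm42418, on the plus strand from 39846958 to 39848788, is 1831 bases long and 60.2% G and C. RefSeq places Rn18s-rs5, a pseudogene copy of 18S ribosomal RNA, at chr17:39846354-39848202, and it covers positions 1 to 1245 of Gm42418, or 68.0% of it. Gm26917 ends 12 bases before Rn18s-rs5 starts. The 120 bases of Gm42418 at chr17:39848143-39848262 cross the end of Rn18s-rs5, with the 18S part in capitals.
Gm42418 across the end of Rn18s-rs5: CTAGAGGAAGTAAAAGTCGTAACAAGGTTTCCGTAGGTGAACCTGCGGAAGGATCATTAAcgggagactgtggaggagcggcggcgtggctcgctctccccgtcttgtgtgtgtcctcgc

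AY036118, 923 bases on the minus strand from 39847113 to 39848035, lies wholly inside Gm42418, opposite its positions 156 to 1078. The first 60 bases of AY036118 and the stretch of Gm42418 opposite, at chr17:39847976-39848035, are printed whole in capitals because all of it overlaps.
AY036118 first 60 bases: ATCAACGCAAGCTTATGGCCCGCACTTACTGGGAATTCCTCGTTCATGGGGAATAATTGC
Gm42418 stretch opposite: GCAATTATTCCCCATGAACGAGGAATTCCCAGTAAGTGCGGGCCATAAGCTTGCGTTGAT

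The richest window of 20 bases holds 17 A in Malat1, 17 in Neat1, 11 in Gm42418, 9 in Gm26917 and 13 in AY036118. Whether counting used the strand is not given in the sources used here. Without strand, reads of Gm42418 and AY036118 cannot be told apart, and since ribosomal DNA is present in many copies, counts of all 3 chromosome 17 genes are uncertain. RefSeq also gives AY036118 another interval, from 39848112 to 39898385.

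Levels are sums of unique molecular identifiers (UMIs, 1 per captured transcript) over a class of barcodes, given as a percent of all UMIs or as CPM. Intervals are 95% and cover counting error only, exact Poisson for a level, exact conditional binomial for a ratio and Clopper-Pearson for a share of barcodes. Since each genotype is 1 library, the mice could not be tested against each other, no p is given, and genotype cannot be told apart from library. A gene was called higher or lower at 1.5-fold or more with a ratio whose interval did not hold 1, counting only genes that reached 20 CPM in either class. The share of all genes passing the same rule is printed beside the counts made under this setting. Counts under other filters, scalings or thresholds have no such share beside them.

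The libraries held 31641799 control, 33068998 hCD33M and 38705639 hCD33m UMIs in the barcodes used, with a median of 4135, 4119 and 4809 UMIs per barcode, and 25 barcodes occurred in a pair of libraries. Barcodes were divided by their UMIs into a low band (under 1500), a second band (1500 to under 3000), a main band (3000 to under 12000) and a top band (12000 or more). The low band held 1593 control, 1535 hCD33M and 1017 hCD33m barcodes, which is 25.9%, 26.1% and 16.3% of each library. All 12 microglia markers were over 20 CPM in every library and band, with a sum of 32753 to 52692 CPM. Summed neutrophil markers were high in the control top band, at 1503 CPM, and erythroid markers in the hCD33M top band, at 564 CPM. Border associated macrophage markers summed to 19.4 to 139 CPM over all libraries and bands.

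Together the 5 RNAs made up 11.4% of control, 11.3% of hCD33M and 11.1% of hCD33m UMIs in the low band, against 4.78%, 5.31% and 5.04% in the main band. Each of the 5 was higher in the low than in the main band in each library, 15 of 15 gene and library pairs. By the same rule 22.0% of all genes were higher in control, 16.2% in hCD33M and 15% in hCD33m, and 26.8%, 31.2% and 30.2% were lower. The bands are part of how the genes were chosen, so nothing is read from this count.

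Malat1 was the gene with the most UMIs in the low and second bands of every library and came after 1 other gene in the main and top bands. In control its level was 101778, 89325, 43689 and 37419 CPM from the low to the top band. The hCD33M library held 105035, 104767, 49689 and 41787 CPM, and the hCD33m library 104320, 83013, 47434 and 42287 CPM. The level thus changed little up to about 2000 UMIs and was 2.33-fold, 2.11-fold and 2.20-fold higher in the low than in the main band of control, hCD33M and hCD33m. The median barcode of the low band gave 10.0% of its UMIs to Malat1 in control, 10.4% in hCD33M and 10.1% in hCD33m, and the highest single share was 28.3%. Malat1 was missing from 1 control and 1 hCD33m barcode, both of the second band.

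Neat1 was the least changed with depth. Its level from the low to the top band was 119, 109, 65.8 and 80.2 CPM in control, 123, 112, 78.6 and 84.2 CPM in hCD33M, and 209, 173, 123 and 147 CPM in hCD33m. In all libraries the main band was lowest, and the low band was 1.81-fold, 1.56-fold and 1.69-fold above it. The hCD33m library stood above both others in every band, with intervals that did not overlap.

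Gm42418 fell from band to band. Its level was 11126, 5513, 3838 and 2883 CPM in control, 7196, 4105, 3162 and 2522 CPM in hCD33M, and 5510, 3557, 2685 and 2427 CPM in hCD33m, from the low to the top band. Within the low band it fell again, from 1.76% of UMIs in control barcodes of 500 to under 700 UMIs to 0.741% in those of 1000 to under 1500. The order of libraries was control, hCD33M, hCD33m in all 4 bands. The highest share in any barcode was 17.8%, in the low band of control.

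AY036118 and Gm26917 had the largest folds between the low and main bands. AY036118 was at 618, 237, 138 and 101 CPM in control, 432, 185, 137 and 91.8 CPM in hCD33M, and 404, 229, 132 and 110 CPM in hCD33m, with folds of 4.48, 3.15 and 3.05. Gm26917 was at 212, 91.3, 49.5 and 61.5 CPM in control, 201, 71.0, 53.7 and 57.4 CPM in hCD33M, and 235, 76.7, 61.2 and 67.1 CPM in hCD33m, with folds of 4.27, 3.75 and 3.85. The intervals of the 3 libraries overlapped for Gm26917 in the low and second bands and for AY036118 in the main band.

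**Figure D1:**
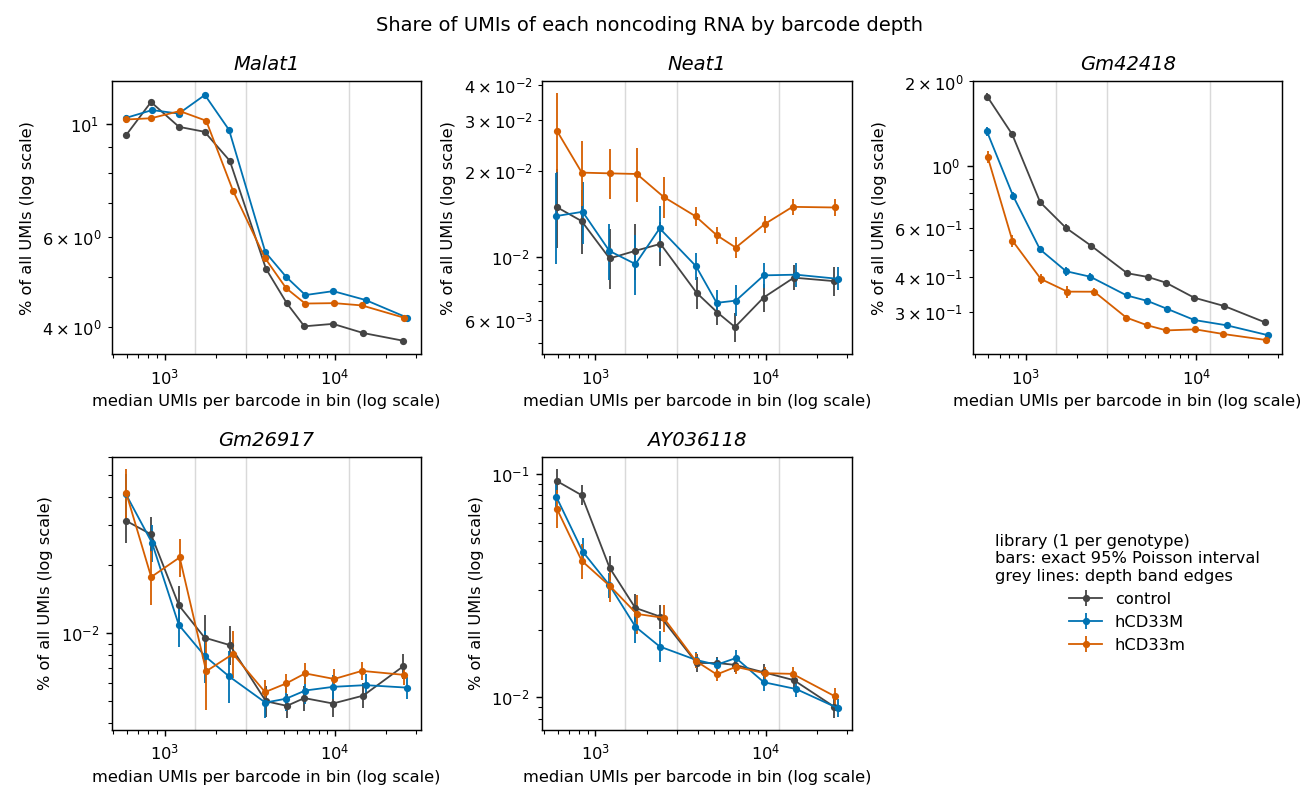
Percent of all UMIs (vertical log axis) of each noncoding RNA by median UMIs per barcode of 11 depth bins (horizontal log axis), 1 line per library, with exact 95% Poisson intervals and grey lines at the band limits. Malat1 stays near 10% up to about 2000 UMIs and then falls, Gm42418 falls from 1.76% in the shallowest control bin with control highest, and the hCD33m line for Neat1 lies above both others.

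The rise in share was not a rise in molecules. A main band barcode held on average 6.44-fold more UMIs in all than a low band barcode in control, 6.16-fold in hCD33M and 6.28-fold in hCD33m. For Malat1 the difference was 2.77-fold, 2.91-fold and 2.86-fold, from 92.7, 98.3 and 97.2 UMIs per low band barcode to 256, 286 and 278. Neat1 was 3.55-fold, 3.95-fold and 3.71-fold, Gm42418 2.22-fold, 2.71-fold and 3.06-fold, AY036118 1.44-fold, 1.95-fold and 2.06-fold, and Gm26917 1.51-fold, 1.64-fold and 1.63-fold higher per main band barcode. Mitochondrial transcripts were 1.82-fold, 1.58-fold and 1.49-fold more numerous per main band barcode. Transcripts of cytoplasmic ribosomal proteins were 21.6-fold, 20.8-fold and 19.9-fold more numerous per main band barcode. For each of the 5 RNAs this fold is the fold in total UMIs divided by the fold in share, so a value under that of the total follows from how the genes were chosen.

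Gene lists of related roles were read in the same contrast, low over main band, beside the background shares above. Of 76 measured cytoplasmic ribosomal protein genes, all 76 were lower in each library, with a median log2 ratio of -1.75 in control, and all 13 mitochondrial mRNAs were higher, with a median of 1.82. Abundant cytoplasmic microglial mRNAs were lower in 9, 6 and 6 of 15 (control, hCD33M, hCD33m) and higher in 0, 1 and 1. Tmsb4x, an actin-binding peptide, was at 3010 CPM in the low and 11374 CPM in the main band of control, and Actb at 2015 and 6512 CPM. Long, intron-rich genes were higher in 9, 6 and 5 of 14 and lower in none, with medians of 0.78, 0.51 and 0.55 against 0.00, -0.09 and -0.14 for all genes tested. Among them Frmd4a, a scaffold protein, was at 1136 and 559 CPM and Dock4, a Rac activator, at 756 and 354 CPM in the low and main bands of control.

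Protein partners of the nuclear RNAs were mixed. Paraspeckle protein genes were higher in 7 of 13, 2 of 14 and 3 of 13 and lower in 2, 2 and 1. Ewsr1, an RNA-binding protein, was higher in the low band of all 3 libraries (280 over 146 CPM in control), whereas Hnrnpk, also an RNA-binding protein, was lower in all 3 (184 against 429 CPM). Nuclear speckle and splicing genes were higher in 5, 1 and 1 of 16 and lower in 2 in each library. Son, the scaffold of speckles, was higher in all 3 libraries (1924 over 948 CPM in control), and the splicing factors U2af1 and Prpf8 were lower. Genes of ribosomal RNA synthesis and the nucleolus were higher in 2 of 14, 2 of 13 and 1 of 13 and lower in 5, 6 and 5. Nhp2, Npm1 and Nolc1, all nucleolar proteins, were lower in each library, with Npm1 at 130 CPM in the low and 290 CPM in the main band of control. Other noncoding RNAs were higher in 5 of 10, 3 of 9 and 4 of 10 and lower in 3 of each. Kcnq1ot1, a nuclear antisense RNA of an imprinted locus, was higher (788 over 286 CPM in control), and Snhg6 and Epb41l4aos were lower.

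The share of barcodes with a UMI followed depth, so each barcode was thinned to 400 UMIs, which left out none. At that depth a Gm42418 UMI was present in 81.0% of barcodes in control, with a 95% interval of 80.0 to 82.0, in 75.7% in hCD33M (74.6 to 76.8), and in 66.8% in hCD33m (65.6 to 68.0). Before thinning it was found in 99.9%, 99.6% and 99.4%. Neat1 was found in 3.43% (2.99 to 3.91), 3.65% (3.19 to 4.17) and 5.23% (4.69 to 5.81), and before thinning in 24.2%, 27.2% and 40.1%. AY036118 was found in 10.1%, 8.46% and 7.60%, and Gm26917 in 3.95%, 3.43% and 3.08%. For Gm26917 that order goes against the levels over all barcodes, which were 63.1, 62.4 and 68.0 CPM, so no order was read from it. For AY036118 the order was not that of the main band, where thinned shares were 5.23%, 5.81% and 5.73%. In the low band they were 21.9%, 16.9% and 16.4%, and the libraries differ in their part of low band barcodes. No order was read for AY036118 either. Before thinning, AY036118 was found in 47.9%, 45.0% and 48.7% and Gm26917 in 22.9%, 23.1% and 26.8%. Malat1 was found in at least 99.9% of barcodes of each library after thinning. Since no cell class here is known to lack these RNAs, the share that free RNA alone would give is unknown.

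The chromosome 17 genes differed in ratio to each other between bands. AY036118 UMIs were 5.56%, 6.01% and 7.34% of Gm42418 UMIs in the low band of control, hCD33M and hCD33m, against 3.60%, 4.34% and 4.93% in the main band. Gm26917 UMIs were 1.90%, 2.80% and 4.27% of Gm42418 UMIs in the low band and 1.29%, 1.70% and 2.28% in the main band. Neat1 UMIs moved the other way relative to Malat1, from 0.117%, 0.117% and 0.200% in the low band to 0.151%, 0.158% and 0.260% in the main band. All 9 of these band pairs had intervals apart. The share of other gene pairs with intervals apart is not given, and the bands are part of how the genes were chosen. Nothing is therefore read from this count. With bands at 1000, 4000 and 8000 UMIs the 6 pairs over Gm42418 stayed apart, but the intervals of Neat1 over Malat1 overlapped in all 3 libraries. The ratio of Gm26917 to Gm42418 did not follow depth, since it was 2.13%, 2.28% and 2.77% in the top band, above the main band in each library. These are ratios of UMI counts and not of molecules, since each RNA is primed with its own efficiency.

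The relation to mitochondrial transcripts was read in the low band, the only band with at least 50 barcodes both over 10% and at or under 5% mitochondrial UMIs in each library. Those classes held 241 and 818 control, 165 and 851 hCD33M, and 157 and 479 hCD33m barcodes. Mitochondrial UMIs were left out of the denominator, because a larger mitochondrial share lowers every other share. Of 15 gene and library pairs, 3 were higher over 10%, beside 4.97% of all genes in control, 4.02% in hCD33M and 3.25% in hCD33m. They were Neat1 in control (193 against 109 CPM), Gm26917 in control (351 against 219 CPM) and Gm42418 in hCD33m (8827 against 5426 CPM). None of the 3 was called in a second library. With classes at or under 2% and over 5%, the direction turned for Gm26917 in control, to a log2 ratio of -0.18, and for Gm42418 in hCD33m, to -0.06.

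Malat1 differed by less than 1.5-fold between these classes and not in 1 direction. Its log2 ratio was 0.06 (0.04 to 0.09) in control, -0.17 (-0.19 to -0.14) in hCD33M and -0.25 (-0.28 to -0.22) in hCD33m. Over all barcodes its share rose with the mitochondrial share, with Spearman's rho of 0.38 in control and hCD33M and 0.20 in hCD33m. Within the main band rho was -0.13, -0.16 and -0.22, and within the top band -0.26, -0.28 and -0.29. Only the second band had positive values in all 3 libraries, 0.18, 0.18 and 0.38. Each rho is over the 476 to 6235 barcodes of 1 library, which share ambient RNA and preparation, and is a description with no p.

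As a sum over barcodes, Gm42418 was high at both ends of the mitochondrial range. In the low band of control it was 2.71% of nonmitochondrial UMIs in the 192 barcodes under 1% mitochondrial UMIs, 0.875% at 1 to 2%, 0.877% at 2 to 5%, 0.973% at 5 to 10%, 1.29% at 10 to 20% and 1.92% in the 20 barcodes at 20% or more. In hCD33M it was 1.17%, 0.697%, 0.660%, 0.688%, 0.966% and 2.49% over the same classes, and in hCD33m 0.865%, 0.473%, 0.491%, 0.544%, 0.799% and 1.5%. The class at 20% or more held 14 hCD33M and 24 hCD33m barcodes. In such sums a few barcodes with a large Gm42418 share weigh heavily. The 47 control low band barcodes with 5% Gm42418 or more had a median mitochondrial share of 0.242%. Their part in the 2.71% was not tested. AY036118 at 20% or more rested on 8 UMIs in control (0.0764%), 0 in hCD33M and 8 in hCD33m (0.0602%), against 0.0735%, 0.0726% and 0.0546% under 1%.

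**Figure D2:**
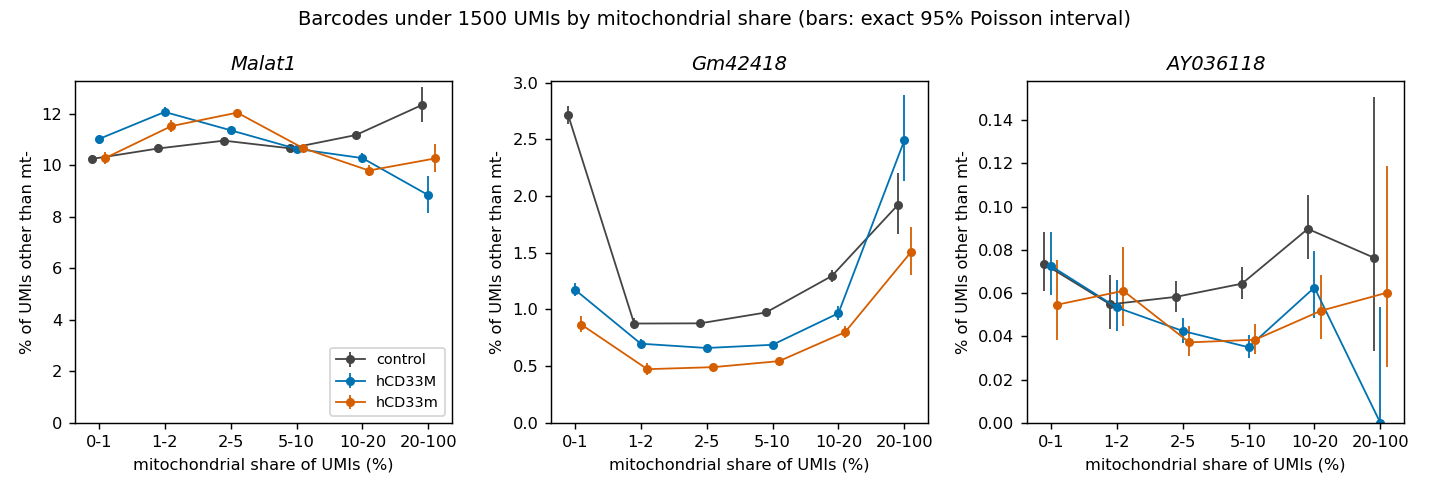
Percent of UMIs other than mitochondrial (vertical axis) of Malat1, Gm42418 and AY036118 in low band barcodes by their mitochondrial share in percent (horizontal axis), 1 line per library, with exact 95% Poisson intervals. Gm42418 lies highest under 1% (2.71% in control) or at 20% or more (2.49% in hCD33M), while Malat1 rises in control and falls in the transgenic libraries at the upper end.

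Low band barcodes with at least 1% Gm42418 were 43.0% of that band in control (40.6 to 45.5), 24.3% in hCD33M (22.2 to 26.5) and 17% in hCD33m. In control, barcodes with under 0.25% Gm42418 held 55999 CPM of the 12 microglia markers in sum, and those with 2 to 5% held 13085 CPM. The same pair was 56447 and 13447 CPM in hCD33M and 47915 and 15585 CPM in hCD33m. P2ry12, the purinergic receptor that marks microglia, went from 3844 to 940 CPM in control, and Cst3, which encodes cystatin C, from 49131 to 11947 CPM. Macf1, a large cytoskeletal linker and 1 of the long genes, went the other way, from 516 to 1713 CPM. AY036118 went from 283 to 1358 CPM and Gm26917 from 60.7 to 585 CPM in the same control barcodes, each as CPM of UMIs other than Gm42418.

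At 5% Gm42418 or more the control library held 47 barcodes, hCD33M 9 and hCD33m 3. The 47 control barcodes were of another kind than those just below. Their median mitochondrial share was 0.242% against 5.56% at 2 to 5% Gm42418, their microglia markers summed to 33281 CPM and their Malat1 was at 60237 against 99937 CPM. Lars2, the mitochondrial leucyl-tRNA synthetase, was at 1881 CPM in them. Control barcodes with 2 to 5% Gm42418 held 512 CPM of Lars2, and those under 0.25% held 111 CPM. High Lars2 at 5% or more was not particular to control, since 9 hCD33M barcodes held 2369 CPM and 3 hCD33m barcodes 1704 CPM. In the whole low band Lars2 was at 259, 164 and 171 CPM in the order control, hCD33M, hCD33m.

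**Figure D3:**
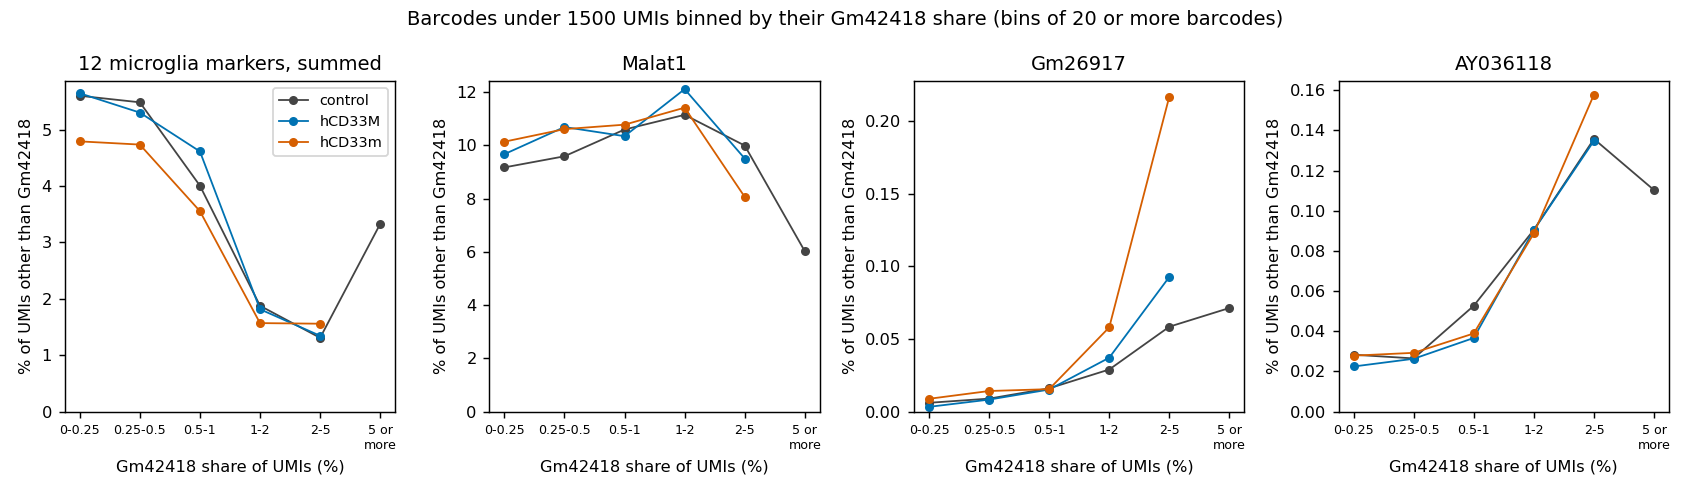
Percent of UMIs other than Gm42418 (vertical axes) of 12 summed microglia markers, Malat1, Gm26917 and AY036118 in low band barcodes grouped by their Gm42418 share in percent (horizontal axis), 1 line per library, for groups of 20 or more barcodes. Markers fall as Gm42418 rises up to 5%, and Gm26917 and AY036118 rise, while the 47 control barcodes at 5% or more have more markers and less Malat1.

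The libraries were compared within each band, since the libraries differ in depth. For hCD33m over control, 7 of 20 gene and band pairs were called, beside 10.7%, 13.6%, 1.42% and 1.64% of all genes in the low, second, main and top bands. For hCD33M over control it was 1 of 20, beside 8.31%, 5.58%, 1.04% and 1.42%. For hCD33m over hCD33M it was 4 of 20, beside 6.02%, 15.9%, 0.814% and 0.916%. In the low band the median of all genes was itself shifted, by -0.12 on the log2 scale for hCD33m and -0.11 for hCD33M over control, and in the second band by 0.10 for hCD33m over control and 0.13 over hCD33M. The 3 comparisons share libraries.

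Neat1 was higher in hCD33m than in control in all 4 bands, 1.75-fold in the low, 1.59-fold in the second, 1.88-fold in the main and 1.83-fold in the top band. Over hCD33M it was 1.71-fold, 1.55-fold, 1.57-fold and 1.74-fold higher. The log2 ratio over control was 0.91 (0.81 to 1.01) in the main band, where 1.42% of all genes were called in either direction. Between hCD33M and control the Neat1 log2 ratio was 0.04, 0.04, 0.26 (0.14 to 0.37) and 0.07, and none passed 1.5-fold. Over all barcodes Neat1 was at 75.2, 84.3 and 135 CPM in the order control, hCD33M, hCD33m. Of the 13 or 14 paraspeckle protein genes measured, none was called in the main band in any of the 3 comparisons, where 1.42%, 1.04% and 0.814% of all genes were. In the low band 1 was lower in hCD33m and 1 in hCD33M than in control, beside 10.7% and 8.31% of all genes called in either direction. In the second band 2 of 13 were higher in hCD33m than in hCD33M, beside 15.9% of all genes. In the main band of control, hCD33M and hCD33m, Sfpq was at 238, 266 and 276 CPM and Nono at 118, 114 and 111 CPM.

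Gm42418 was lower in hCD33m than in control, 0.495-fold in the low and 0.645-fold in the second band, and was not called in the main (0.700-fold) and top bands (0.842-fold). In hCD33M it was 0.647-fold of control in the low band, the only call of that comparison, and 0.745-fold, 0.824-fold and 0.875-fold in the others. AY036118 was called in the low band of hCD33m, at 0.654-fold of control, and was at 0.966-fold, 0.959-fold and 1.09-fold in the other bands. In microglia-like barcodes alone, those of clusters (described below) named by microglia markers, the AY036118 value turned to a log2 ratio of 0.12. The Gm42418 value in the low band was -0.83 there, against -1.01 in all barcodes. Naming left shallow clusters without a marker among their leading genes unnamed, including the one led by AY036118, Gm26917 and Gm42418. The microglia-like class therefore also leaves out shallow barcodes rich in these RNAs. Malat1 and Gm26917 were called in no band of any comparison, with Malat1 at 1.09-fold and Gm26917 at 1.24-fold of control in the main band of hCD33m. Of the genes of ribosomal RNA synthesis and the nucleolus, none of 11 or 12 measured was called in the low band in any comparison. Beside this stand 10.7% of all genes for hCD33m over control, 8.31% for hCD33M over control and 6.02% for hCD33m over hCD33M. With so few genes nothing is read from this count. In the second band 2 of 11 were called higher for hCD33m over control, beside 13.6% of all genes called in either direction. The median log2 ratio over the list was 0.41. For hCD33m over hCD33M it was 2 of 11, beside 15.9% of all genes, with a median of 0.46. This was not particular to the list. Of 76 cytoplasmic ribosomal protein genes, 38 and 75 were higher in the same 2 comparisons. None of 13 genes of ribosomal RNA synthesis and the nucleolus was called in the main or top band. In the same order of comparisons, 1.42%, 1.04% and 0.814% of all genes were called in the main band. In the top band it was 1.64%, 1.42% and 0.916%, so nothing is read from this count either.

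**Figure D4:**
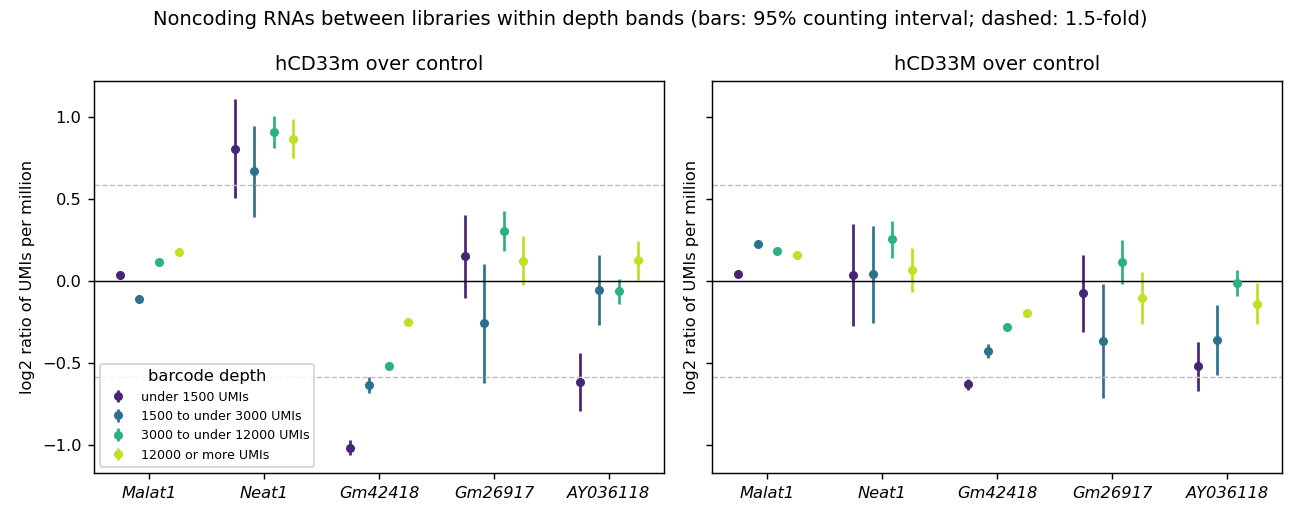
Log2 ratio of CPM over control (vertical axis) for each noncoding RNA (horizontal axis) in hCD33m (left) and hCD33M (right), 1 point per depth band with its 95% counting interval and dashed lines at 1.5-fold. Neat1 lies above the upper dashed line in all bands of hCD33m (log2 0.67 to 0.91). In hCD33M it lies at 0.04 to 0.26, highest in the main band. Gm42418 lies below 0 in every band of both.

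Scaling moved some of these calls. With TMM or median-of-ratios factors, 5 of 20 were called for hCD33m over control and none for hCD33M over control. The share of all genes called with these factors is not given, so the counts are not read further. Neutrophil markers, which were high in the control top band, summed to 0.702 CPM in hCD33M and 0.674 CPM in hCD33m there, and their part in the top band values was not tested. In the main band they were higher in both transgenic libraries than in control, and their part there was not tested either.

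Clusters of barcodes were formed without the 5 genes among the variable genes, which gave 19 clusters, numbered by size. Clusters 3, 10 and 12 were led by Fos and other immediate early genes and held 39 control, 504 hCD33M and 2385 hCD33m barcodes, or 0.634%, 8.57% and 38.3% of each library. Outside them Neat1 was at 75.1, 84.4 and 136 CPM from control to hCD33M to hCD33m, with intervals of 72.1 to 78.2, 81.1 to 87.8 and 131 to 141. Inside them it was at 97.8 CPM (63.3 to 144), 83.7 CPM (73.7 to 94.7) and 134 CPM (128 to 139). The control and hCD33m intervals inside them overlapped, with 39 control barcodes. Whether these clusters bear on the difference in Neat1 was not tested. Gm42418 outside them was at 3985, 3144 and 2796 CPM. Without these clusters 6 of 20 pairs were called for hCD33m over control, 1 for hCD33M over control and 4 for hCD33m over hCD33M. The share of all genes called without these clusters is not given, so these counts lack a background.

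Of the 12 clusters with at least 50 barcodes in both hCD33m and control, Neat1 was higher in hCD33m in 12, with intervals apart in 10 and a median fold of 1.76. Gm42418 was lower in 12 of 12, with intervals apart in all 12 and a median fold of 0.727. Malat1 was higher in 11 of 12, with intervals apart in 9 and a median fold of 1.09, and Gm26917 in 12 of 12, with intervals apart in 2. In hCD33M against control Gm42418 was lower in 12 of 12 (median 0.837), Malat1 higher in 12 of 12 (median 1.12) and Neat1 higher in 12 of 12, with intervals apart in 1 (median 1.14). Between the transgenic libraries Neat1 was higher in hCD33m in 14 of 14 clusters, with a median fold of 1.61. Clusters of 1 library share its preparation and are not replicates of a genotype. Intervals also lay apart at small folds, as for Malat1 in 9 of 12 clusters of hCD33m against control, with a median fold of 1.09. The share of all genes with the same direction or with intervals apart over these clusters is not given. The counts of clusters therefore lack a background, and nothing is read from them.

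**Figure D5:**
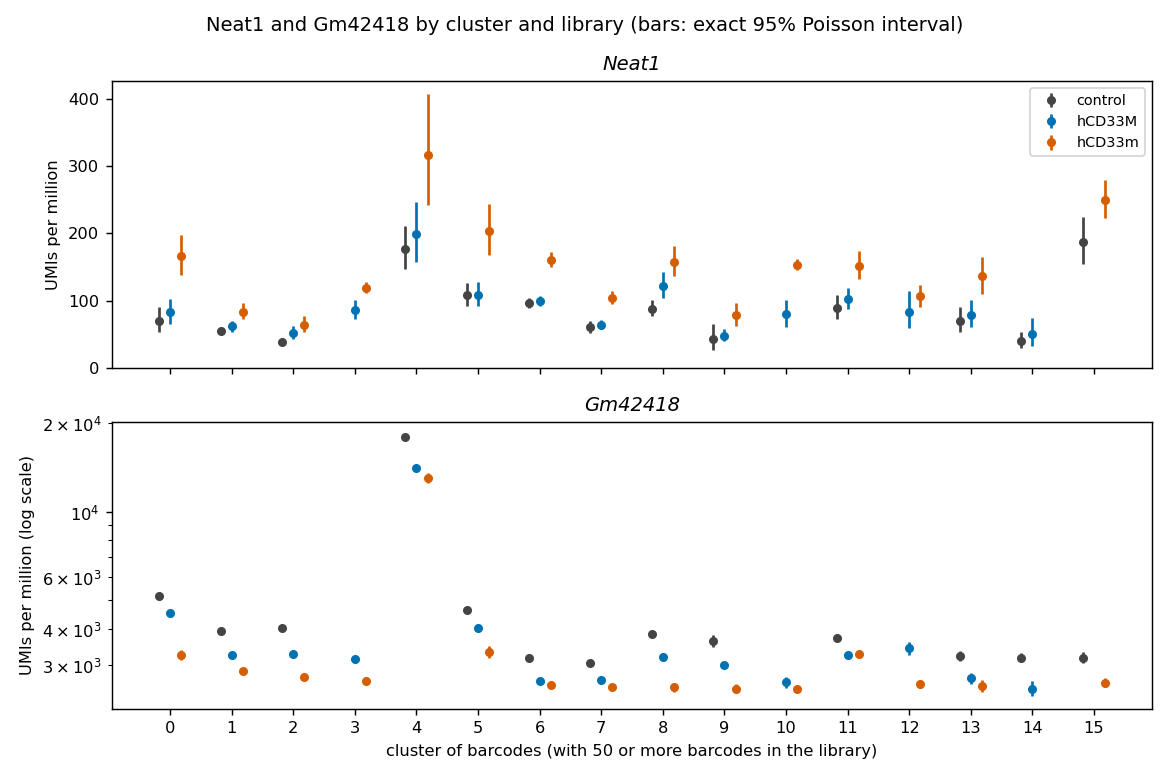
CPM of Neat1 (upper panel) and Gm42418 (lower panel, log axis) by cluster (horizontal axis) for each library with at least 50 barcodes in the cluster, with exact 95% Poisson intervals. Neat1 of hCD33m lies above control in all 12 clusters that show both, Gm42418 of control is highest in those, and cluster 4 stands apart for Gm42418.

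Cluster 4 had the highest levels of Malat1, Gm42418, Gm26917 and AY036118 of the 19 clusters, whereas its Neat1, at 205 CPM, was below that of clusters 15, 16 and 18 (229, 261 and 248 CPM). Its 1680 barcodes (874 control, 542 hCD33M and 264 hCD33m) had a median of 702.5 UMIs, AY036118, Gm26917 and Gm42418 were its leading genes, and it stayed without a cell type name. Over the 3 libraries it held 121208 CPM of Malat1, 15985 CPM of Gm42418, 978 CPM of AY036118 and 483 CPM of Gm26917. Its Gm42418 was at 17913, 14125 and 12993 CPM from control to hCD33M to hCD33m, and its Gm26917 in the reverse order, at 386, 534 and 718 CPM. Cluster 0, also unnamed and shallow with a median of 1057 UMIs, was led by mitochondrial genes and held 4384 CPM of Gm42418 and 89273 CPM of Malat1. Cluster 5, microglia-like with a median of 1887 UMIs, had Malat1 among its leading genes, at 112289 CPM, and Gm42418 at 4152 CPM.

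Border associated macrophage-like barcodes, a class of macrophages along vessels and meninges, held more Neat1 than microglia-like ones in each library. Microglia-like main band barcodes were at 61.2, 71.6 and 115 CPM of Neat1 from control to hCD33M to hCD33m. Border associated macrophage-like barcodes of the same band, 33, 25 and 62 in number, were at 252 CPM (187 to 331), 323 CPM (244 to 419) and 351 CPM (294 to 415) in the same order. Their Malat1 was at 45765, 49222 and 43189 CPM, against 43760, 49719 and 47683 CPM in microglia-like barcodes. Cluster 16, unnamed and led by S100a9, held 261 CPM of Neat1 and 20051 CPM of Malat1, the latter below every microglia-like cluster. Cluster 17, 43 barcodes led by Ttr, the thyroxine carrier of the choroid plexus, with a median of 976 UMIs, held 4780 CPM of Malat1 beside 4706 CPM of Gm42418. Low depth and a high Malat1 share did not go together in that cluster.

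The genes most like each RNA were sought over the 12 library and band sums, by Pearson's r of log2(CPM + 1) among 7666 genes, which share libraries and depth. Malat1 was most like Agmo (r = 0.99), Atp2c1, Gm26699, Lman2l and Gm15655. Neat1 had less close matches, Acox3 (0.96), Leng9 (0.91), Tmx4, Gm20186 and Npnt. Gm42418 was most like Mthfsd (0.98), Esf1, Zranb2, Fbxw17 and Cdkal1, Gm26917 most like Naip5 (0.99), Ankrd44, Brf1, Cop1 and Uvrag, and AY036118 most like Rsrc1 (0.99), Fam133b, Gm17477, Paxbp1 and Fer. Among the 5 themselves Gm42418 and AY036118 were closest (0.94), followed by Gm26917 and AY036118 (0.92), and Neat1 and Gm42418 were farthest apart (0.24). Across single low band barcodes the shares of Gm42418 and AY036118 had a Spearman's rho of 0.27 in control, 0.26 in hCD33M and 0.19 in hCD33m, and those of Malat1 and Gm42418 0.00, 0.08 and 0.01.

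At the upper limit of the barcode rule, the barcodes just inside it, with over 7000 genes (27, 43 and 26 in the order control, hCD33M, hCD33m), gave 3.38%, 3.58% and 3.81% of their UMIs to Malat1 and 0.227%, 0.221% and 0.220% to Gm42418. The 8, 36 and 22 barcodes over 8000 genes, left out, gave 2.58%, 2.71% and 3.30% to Malat1 and 0.192%, 0.148% and 0.167% to Gm42418.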

How the data were processed

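Whole brain microglia of 3 mouse groups were profiled on the 10x Chromium 3′ platform, 1 library per genotype. The authors aligned reads to mm10 with the STAR-based Cell Ranger, counted UMIs and imported them into Seurat, keeping barcodes with more than 200 genes and genes in at least 3 cells. The deposited values are raw UMI counts per gene and barcode, with no normalization. The annotation release and the strand setting are not given in the sources used here. A gene with 0 counts may have been removed by the gene filter, and the lowest barcode total was 499 UMIs.

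The 5 genes, the gene lists and the comparisons were chosen with earlier results of these data known. Sums of UMIs per library and depth band were scaled to CPM with intervals from scipy 1.17.1, under Python 3.11.15 with numpy 2.4.6. Depth is 31641799 to 38705639 UMIs per library, and counting error alone is covered by the intervals. Genes beside the 5 were named by a fixed rule: the 5 genes most alike to each, up to 3 genes per list with the largest mean absolute log2 ratio between the low and main bands, and cell type markers. A gene that this rule names is not reported here. Clusters 0, 4, 5, 16 and 17, Macf1, Cst3, Sfpq and Nono were singled out after their values were seen. Barcodes were clustered with scanpy 1.11.5 and igraph 0.11.9 on 2000 variable genes, 15 components and 20 neighbours at a Leiden resolution of 1.5, a value chosen after the data were seen, as was the alternative without clusters led by Fos. No doublet caller was run, and only the limit of 8000 genes bears on doublets. TMM factors came from edgeR 4.0.16, and figures from matplotlib 3.10.9. The scripts were tested on simulated counts with known changes. Seurat processing, SCCAF clusters and regulons of the study were not repeated.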

Additional observations from a re-analysis of the deposited data

Results flagged for a closer look

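Malat1 moved in opposite directions with the mitochondrial share in the low band. Between barcodes over 10% and at or under 5% mitochondrial UMIs, its log2 ratio was 0.065 in control, above 0, and -0.17 in hCD33M and -0.25 in hCD33m, below 0. All 3 values are under 1.5-fold, each rests on 1 library, and the difference between libraries was not tested.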

How the results depend on the processing

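Each level was computed again under other barcode filters, denominators, depth bands, scalings and thresholds. Of these values 782 stayed within the counting error of the reported one, 190 moved beyond it and 3 changed direction. The 782 include 90 at the 2-fold threshold, a setting that cannot move a value. With the other depth bands 51 stayed and 39 moved. In microglia-like barcodes 45 stayed, 29 moved and 1 changed direction. The count of genes higher in the low band stayed at 15 of 15, except for 12 at 2-fold and 12 in microglia-like barcodes. Neither this count nor those that follow have a share of all genes under the same setting beside them. For hCD33m over control the count of 7 of 20 became 1 at 2-fold, 4 with depth measured without mitochondrial genes and the 5 RNAs, and 1 of 5 without depth bands. For hCD33M over control the count of 1 became 2 with bands at 1000, 4000 and 8000 UMIs, and 0 at 2-fold, with TMM, with median-of-ratios factors or without depth bands. For hCD33m over hCD33M the count of 4 became 0 at 2-fold. The mitochondrial count of 3 of 15 became 0 at 2-fold, 1 with all UMIs in the denominator, 5 with depth measured without mitochondrial genes and the 5 RNAs, and 3 of 30 with classes at or under 2% and over 5%. The values that changed direction were AY036118 in the low band of hCD33m over control (0.12 in microglia-like barcodes), Gm26917 in control (-0.18) and Gm42418 in hCD33m (-0.056), the last 2 with those mitochondrial classes. The band pairs of gene ratios with intervals apart were 6 of 9 with the other depth bands, where Neat1 over Malat1 overlapped in all 3 libraries. The cause was not tested. No paired analysis was possible because each genotype is 1 library, and for the same reason no replicate could be left out. Depth limits Neat1, Gm26917 and AY036118 most, with under 1 UMI per low band barcode.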
